A study of Mus musculus with 8 samples.

Results

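Imprinted growth genes are genes expressed from the maternal or the paternal chromosome alone, and 10 of them were examined here by name: Dlk1, Meg3, Rian, Mirg, H19, Mest, Peg3, Plagl1, Grb10 and Ndn. All 10 were found among the 23699 entries of each deposited gene table. Of these, 5 (Dlk1, H19, Mest, Peg3 and Ndn) had a mean of at least 1 FPKM over the 8 libraries and entered the test, and the other 5 are described by their levels. FPKM is the number of sequenced fragments scaled by transcript length and by mapped fragments of the library, so levels of different genes can be set side by side per length.

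The cells were 3T3-L1, a mouse preadipocyte line, and the labels name no genetic change in them. The 4 siFto samples were transfected with 3 mixed Stealth siRNAs, modified duplexes against Fto, the gene of an RNA demethylase, and the 4 siCtr samples with 3 non-targeting ones. Both groups were exposed to 40 nM siRNA in Lipofectamine 2000 for 24 h before confluence, and the preadipocytes were 2 days past confluence when total RNA was taken. Whether the 4 samples of a group came from separate cultures is not stated, so the spread behind each p-value may be a technical one.

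Fto had 13.8, 10.7, 12.3 and 11.6 FPKM in the 4 siFto libraries, against 54.6, 55.4, 56.2 and 55.2 FPKM in the 4 siCtr libraries, and fell by 2.15 on the log2 scale (limma, adjusted p = 7.3e-08). Sequencing depth, as implied by the deposited intervals, was 18.9 to 24.4 M fragments a library. Library siCtr3 was the most distant of its group, with median differences of 1.42 to 1.72 standard errors to the other siCtr libraries, while no other pair within a group passed 1.26. Of 8 preadipocyte and fibroblast markers, 7 were tested, with 4 higher (Ly6a, Thy1, Col1a1 and Col1a2) and 2 lower (Pdgfra and Pdgfrb) in siFto. The FPKM of the 8 summed to 5580 to 6488 in siFto and 4984 to 5402 in siCtr. Most of that sum came from Col1a1 (means of 1897 FPKM in siFto and 1605 FPKM in siCtr) and Col1a2 (3407 and 2932 FPKM). Mature adipocyte markers summed to 53.4 to 65.7 FPKM in siFto and 51 to 81.7 FPKM in siCtr. Fabp4 made up most of that sum (means of 52.9 FPKM in siFto and 57.4 FPKM in siCtr). Adipoq averaged 2.32 FPKM in siFto and 4.59 FPKM in siCtr, and Cidec 0.755 and 1.46 FPKM. Neither passed the test (limma, adjusted p = 0.163 and 0.426), and both were highest in siCtr4 (9.19 and 3.26 FPKM). Endothelial markers stayed at or under 0.571 FPKM in siFto and 0.478 FPKM in siCtr. Epithelial markers reached at most 0.042 FPKM in siFto and 0.097 FPKM in siCtr, with 2 of 4 at 0 in every library. Macrophage markers summed to 8.75 to 10.1 FPKM in siFto and 7.86 to 9.74 FPKM in siCtr. Cd14 made up most of it (means of 7.49 FPKM in siFto and 7.16 FPKM in siCtr). Emr1 was listed at 0 in every library and Ptprc did not exceed 0.00949 FPKM. Muscle markers summed to 1.46 to 2.15 FPKM in siFto and 1.34 to 2.22 FPKM in siCtr. Nearly all of it was Des (means of 1.81 FPKM in siFto and 1.92 FPKM in siCtr), with Myod1 and Ckm listed at 0 throughout. In bulk RNA, fewer cells that express a gene and less of its RNA per cell cannot be told apart, and the parental allele was not read here.

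Imprinted genes carry DNA methylation set in the egg or the sperm, which keeps one parental copy silent in the embryo's tissues. They lie in clusters in which a long noncoding RNA and protein-coding genes often come from opposite chromosomes, and many act on growth before birth. Dlk1, also called Pref-1, is a transmembrane protein of preadipocytes whose shed ectodomain holds back adipocyte formation, and it is silenced as fat cells mature. Its neighbours Meg3, Rian and Mirg are maternally expressed noncoding RNAs that host microRNAs and small nucleolar RNAs. H19 is a maternally expressed noncoding RNA next to Igf2, the paternally expressed growth factor gene. Both use shared enhancers under the control of a region that binds CTCF where it is not methylated.

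Several of the loci contain microRNA genes, and the sequences below are shown because these small RNAs are among the known products of H19, Mest and the noncoding RNAs of the Dlk1 domain. Of the 17 microRNA entries inside a member's locus, 16 had a mature sequence in RefSeq (GRCm38.p6), 30 mature sequences in all, and no 2 of them shared a seed. The seed, bases 2 to 8, which pairs with target RNAs, is in capitals.
mmu-miR-675-5p, H19: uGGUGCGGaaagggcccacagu
mmu-miR-675-3p, H19: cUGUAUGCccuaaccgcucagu
mmu-miR-335-5p, Mest: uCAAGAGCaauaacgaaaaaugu
mmu-miR-335-3p, Mest: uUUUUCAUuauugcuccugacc
mmu-miR-770-5p, Meg3: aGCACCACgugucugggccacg
mmu-miR-370-3p, Rian: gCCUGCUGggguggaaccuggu
mmu-miR-410-3p, Mirg: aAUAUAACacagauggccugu
mmu-miR-377-3p, Mirg: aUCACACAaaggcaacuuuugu
All 17 hairpin entries were listed at 0 FPKM in all 8 libraries, and mature microRNAs were not measured here.

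The members spanned a wide range of levels, in the same broad order in both groups. Dlk1 was by far the highest, at rank 38 to 47 of all entries in each library, and it made up 88.1 to 89.8% of the summed FPKM of the 10 genes. Ndn (40 to 46.8 FPKM over all 8 libraries) and Mest (31.5 to 42.8 FPKM) followed and overlapped each other. Peg3 lay below both at 17.4 to 24 FPKM, and H19 below Peg3 at 7.15 to 8.98 FPKM. Rian, Grb10 and Plagl1 were near 1 FPKM and overlapped each other, with 0.454 FPKM the lowest and 1.17 FPKM the highest value of the set. Mirg did not exceed 0.342 FPKM, and Meg3 was listed at 0.

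**Figure D1:**
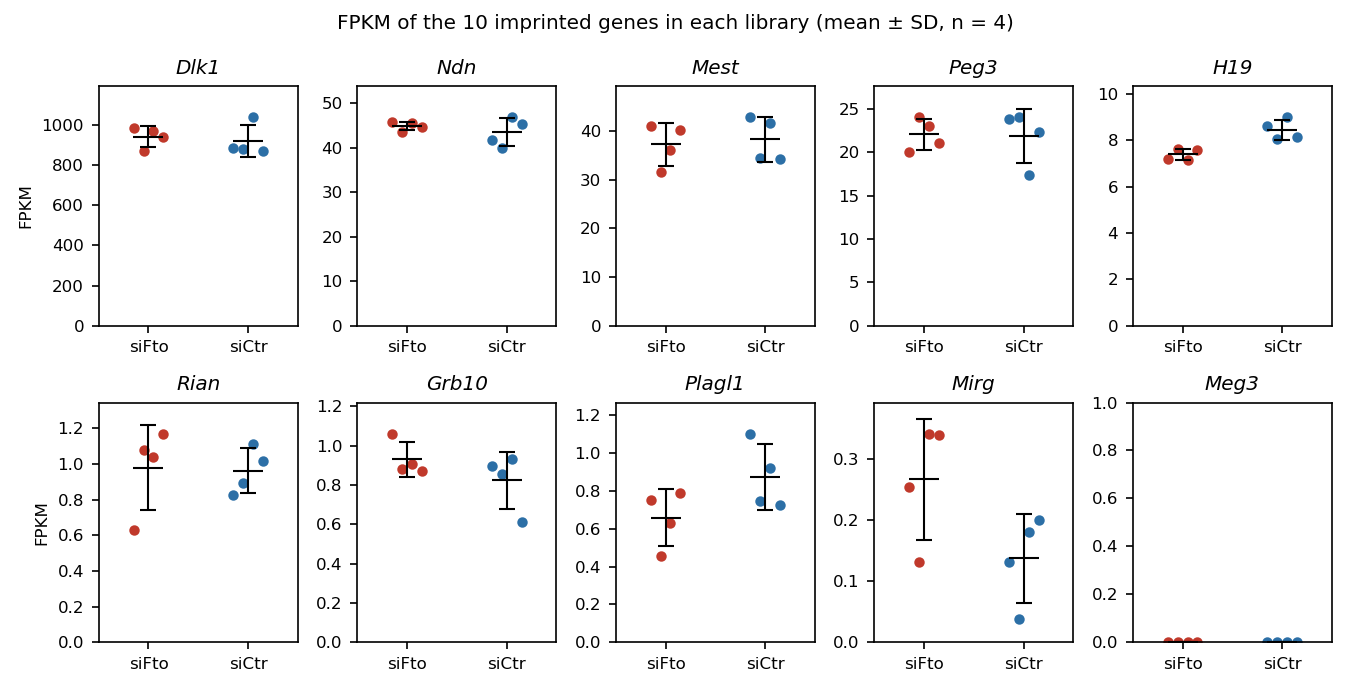
FPKM of the members in each library (points; red, siFto; blue, siCtr; black bars, mean ± SD, n = 4 each; each panel has its own linear axis from 0). H19 is the member with a called change, its siFto libraries (7.15 to 7.6 FPKM) all below its siCtr libraries (8.03 to 8.98 FPKM), while the groups of the other members overlap.

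Among the 5 tested members, H19 was lower after Fto knockdown, none was higher, and 4 did not pass the test at a limma adjusted p of 0.05. Over all 11398 tested genes, 19.3% were called in either direction, 12.3% lower and 6.97% higher, so 1 call among 5 members is close to the background. The median log2 fold change of the 5 was 0.02, against -0.02 over all tested genes. At an unadjusted p below 0.05 the members again gave 1 lower and 0 higher.

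H19 (mm9 chr7:149761437-149764051) had 7.2, 7.6, 7.15 and 7.58 FPKM in the siFto libraries, against 8.61, 8.03, 8.98 and 8.15 FPKM in the siCtr libraries. Every siFto library lay below every siCtr library, as was the case for 15.1% of all tested genes, and for 9.08% with siFto above siCtr. H19 averaged 7.38 ± 0.238 FPKM in siFto and 8.44 ± 0.437 FPKM in siCtr (SD, n = 4 each), 12.6% lower in siFto. Its log2 fold change was -0.18 with a standard error of 0.0487 and a 95% interval of -0.29 to -0.07 (limma, adjusted p = 0.0262). The intervals deposited with these values imply 374, 381, 323 and 394 fragments in siFto and 431, 467, 438 and 451 fragments in siCtr, so the level of the locus rests on at most 467 fragments a library. The call sits close to the threshold. It was lost without siFto1, siFto3 or siCtr1 (adjusted p = 0.065, 0.0685 and 0.0632) and under quantile normalization (adjusted p = 0.0551), and over all alternatives the adjusted p ran from 0.0242 to 0.0715. Leaving out siCtr3 gave -0.15 (limma, adjusted p = 0.0477). The preadipocyte marker sum, made up mostly of Col1a1 and Col1a2, was higher in siFto, as given above, while Pdgfra and Pdgfrb were lower. The part of these markers in the H19 difference was not tested.

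The tested genes around H19 moved in both directions. Igf2, 72.6 kb away and reciprocally imprinted, had 46.5, 42.6, 49.4 and 45.6 FPKM in siFto, against 59, 54.7, 57.4 and 49.4 FPKM in siCtr. Every siFto library lay below every siCtr library, though the nearest pair, siFto3 and siCtr4, both round to 49.4 FPKM. Igf2 fell by 0.26 on the log2 scale (limma, adjusted p = 0.0147, and 0.0282 without siCtr3). Lsp1, which encodes an actin-binding protein of leukocytes and lies 80.9 kb from H19 on the other side, had 21.3, 18.8, 18.7 and 19.9 FPKM in siFto, against 26.6, 26.3, 28.4 and 24.5 FPKM in siCtr. Lsp1 fell by 0.42 on the log2 scale (limma, adjusted p = 0.000701). Tnnt3, the fast skeletal troponin T gene between Lsp1 and H19, had 2.42, 2.74, 2.1 and 2.41 FPKM in siFto, against 0.921, 1.69, 1.32 and 1.05 FPKM in siCtr, and rose by 0.76 on the log2 scale (limma, adjusted p = 0.00415). The muscle marker sum, nearly all from Des, overlapped between the groups at 1.46 to 2.15 FPKM in siFto and 1.34 to 2.22 FPKM in siCtr. Mrpl23, the closest tested gene at 34.8 kb, averaged 16.5 ± 2.7 FPKM in siFto and 18.5 ± 0.798 FPKM in siCtr and did not pass the test (limma, adjusted p = 0.244). Without siFto1, the library with the highest value of Mrpl23, its adjusted p was 0.0358.

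By distance between centred log2 values over the 8 libraries, the tested genes with the pattern most like that of H19 were 3830406C13Rik and Klhl9, each at a distance of 0.07, followed by Spats2 at 0.08. The fold changes of these genes were -0.18, -0.19 and -0.18 on the log2 scale. Since the distance includes the difference between the groups, fold changes near that of H19 follow from how these genes were picked.

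**Figure D2:**
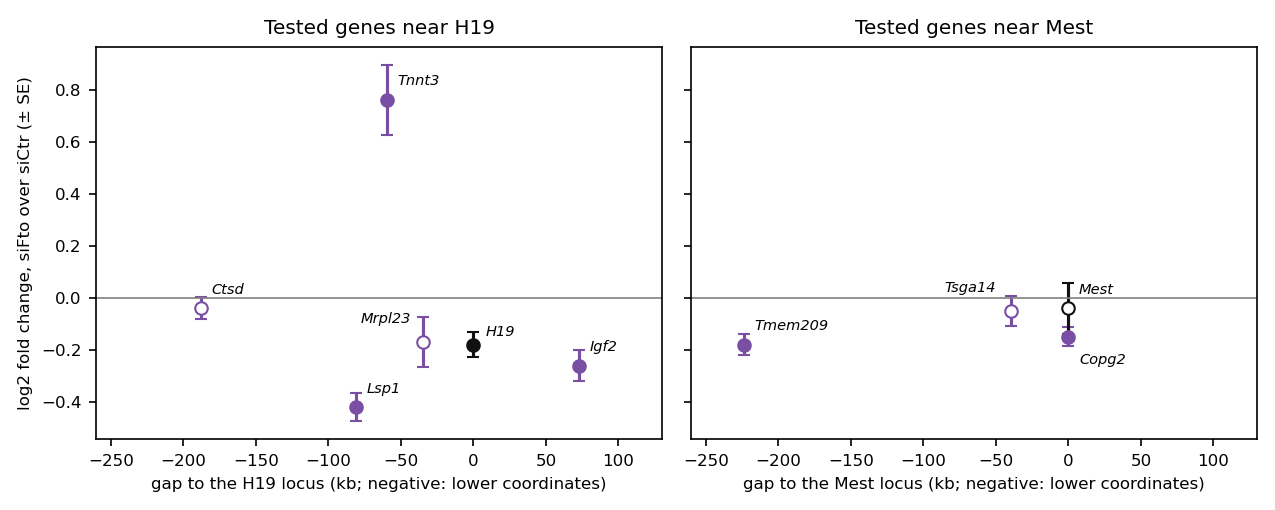
Log2 fold change, siFto over siCtr (± SE), of tested genes within 250 kb of H19 (left) and of Mest (right) against their gap to that locus in kb (negative, lower mm9 coordinates); black, the member; purple, neighbours; filled, limma adjusted p below 0.05. Around H19, Igf2 (-0.26) and Lsp1 (-0.42) lie below 0 and Tnnt3 (0.76) above it, and beside Mest, which is at -0.04, Copg2 is at -0.15.

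Dlk1 (mm9 chr12:110691033-110701546) had 982, 868, 970 and 938 FPKM in the siFto libraries, against 885, 881, 1036 and 871 FPKM in the siCtr libraries. The groups overlapped, with siFto2 the lowest library and siCtr3 the highest. Dlk1 averaged 939 ± 51.2 FPKM in siFto and 918 ± 78.6 FPKM in siCtr (SD, n = 4 each). Its log2 fold change was 0.03 with a 95% interval of -0.11 to 0.18 (limma, adjusted p = 0.756). Without siCtr3 the value was 0.09 (limma, adjusted p = 0.176), and leaving out any other library gave 0.01 to 0.07. With 74780 to 87862 fragments a library behind Dlk1, the deposited upper bounds lay only 0.67 to 0.73% above the values.

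Downstream of Dlk1, Rian did not exceed 1.17 FPKM and Mirg 0.342 FPKM in any library, and Meg3 gave no value above 0. Meg3 (mm9 chr12:110779206-110809939), a noncoding RNA expressed from the chromosome that silences Dlk1, was listed at 0 in all 8 libraries although its quantification status was given as OK. Of all 23699 entries, 5892 were at 0 in all libraries. So were 4 of 314 entries with names of ribosomal protein, proteasome, initiation factor or complex I genes. These counts cannot tell a missed RNA from an absent one. The 0 of Meg3 is therefore given as listed and is not read as absence of the RNA. Rian (mm9 chr12:110842155-110899921), a host of small nucleolar RNAs, had 0.632, 1.08, 1.04 and 1.17 FPKM in siFto, against 0.827, 0.896, 1.11 and 1.02 FPKM in siCtr. The groups overlapped, and siFto1 was the lowest library. Mirg (mm9 chr12:110973191-110987667), a microRNA host, had 0.255, 0.132, 0.342 and 0.34 FPKM in siFto, against 0.132, 0.038, 0.181 and 0.2 FPKM in siCtr. Those values stand for 6, 3, 7 and 8 fragments in siFto and 3, 1, 4 and 5 in siCtr, and the groups overlapped. In a fit without the filter on low values, Mirg gave an adjusted p of 0.212 and Rian one of 0.997 (limma).

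Summed over Meg3, Rian and Mirg, the domain's noncoding RNAs came to 0.887, 1.21, 1.39 and 1.51 FPKM in siFto and 0.959, 0.934, 1.29 and 1.22 FPKM in siCtr. The sums averaged 1.25 ± 0.269 FPKM in siFto and 1.1 ± 0.182 FPKM in siCtr, a difference of 0.146 FPKM (two-sided exact permutation test over 70 arrangements, p = 0.4, where 0.0286 is the smallest p possible). Meg3 enters these sums at its listed 0, so they hold Rian and Mirg alone. Leaving out siFto1 raised the difference to 0.266 FPKM, and leaving out siFto4, siCtr2 or siCtr1 lowered it to 0.0596, 0.09 or 0.0985 FPKM. Dlk1 exceeded Rian 802 to 1554 times per length in siFto and 854 to 1070 times in siCtr. Rtl1, a retrotransposon-derived gene of the same domain and paternally expressed like Dlk1, had 0.471, 0.689, 0.431 and 0.586 FPKM in siFto, against 0.398, 0.383, 0.476 and 0.335 FPKM in siCtr, below the level needed for the test. Dio3, the thyroid hormone deiodinase at the end of the domain, was listed at 0 in the siFto libraries and did not exceed 0.0249 FPKM in siCtr. Of the 57 microRNA entries in the 297 kb between the outer ends of Dlk1 and Mirg, 56 were at 0 in all libraries, and Mir433 was above 0 in siFto2 alone.

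Mest (mm9 chr6:30683506-30698466), a paternally expressed hydrolase-like protein made in growing adipose tissue, had 41.1, 31.5, 36.1 and 40.2 FPKM in siFto, against 42.8, 34.4, 41.7 and 34.2 FPKM in siCtr. High and low libraries occurred in both groups, with siFto2 the lowest and siCtr1 the highest. Mest averaged 37.2 ± 4.39 FPKM in siFto and 38.3 ± 4.62 FPKM in siCtr, a log2 fold change of -0.04 with a 95% interval of -0.26 to 0.18 (limma, adjusted p = 0.818). Its sign turned to 0.04 without siFto2 and to 0.02 without siCtr1. Copg2, a coatomer subunit gene that meets the end of Mest, had 40.2, 39.3, 38.9 and 39.3 FPKM in siFto, against 45.8, 44.2, 41.4 and 44.3 FPKM in siCtr. It was lower in every siFto library and fell by 0.15 on the log2 scale (limma, adjusted p = 0.0159). The loci of the pair overlap at their ends and no source used here states a strand setting, so fragments there could have been given to either gene. Tmem209, 223.8 kb from Mest, was also lower, at 34.4 ± 1.43 FPKM in siFto and 39 ± 1.2 FPKM in siCtr (limma, adjusted p = 0.0114), while Tsga14 at 39.8 kb did not pass the test (limma, adjusted p = 0.582).

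Peg3 (mm9 chr7:6658671-6683130), a paternally expressed zinc finger protein, had 20, 24, 23 and 21.1 FPKM in siFto, against 23.8, 24, 17.4 and 22.3 FPKM in siCtr. The groups overlapped, with siFto2 and siCtr2 level at the top and siCtr3 the lowest library. Peg3 averaged 22 ± 1.79 FPKM in siFto and 21.9 ± 3.07 FPKM in siCtr, a log2 fold change of 0.02 with a 95% interval of -0.20 to 0.23 (limma, adjusted p = 0.92), and -0.09 without siCtr3. Its antisense partner Peg3as, inside the Peg3 locus, had 11.5, 14.4, 14.7 and 16.1 FPKM in siFto, against 10.4, 11.5, 17.4 and 11.2 FPKM in siCtr. In siCtr3 Peg3 was at its lowest and Peg3as at its highest. Without siCtr3, Peg3as was 0.34 higher on the log2 scale in siFto (limma, adjusted p = 0.0329), against 0.18 with all libraries (limma, adjusted p = 0.437). Reads of the sense and the antisense gene cannot be told apart without strand.

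Ndn (mm9 chr7:69493163-69494813), necdin, a paternally expressed MAGE family protein that restrains cell growth, had 45.7, 43.6, 45.5 and 44.7 FPKM in siFto, against 41.7, 40, 46.8 and 45.4 FPKM in siCtr. The siFto libraries lay within the wider range of the siCtr libraries. Ndn averaged 44.9 ± 0.956 FPKM in siFto and 43.5 ± 3.13 FPKM in siCtr, a log2 fold change of 0.05 with a 95% interval of -0.06 to 0.16 (limma, adjusted p = 0.538). It was 0.01 without siCtr2 and 0.08 without siCtr3. Its imprinted neighbours Mkrn3 and Peg12 were much lower, at 1.33 ± 0.185 and 3.66 ± 0.113 FPKM in siFto and 1.6 ± 0.295 and 3.59 ± 0.149 FPKM in siCtr, and neither passed the test (limma, adjusted p = 0.325 and 0.808).

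Plagl1 (mm9 chr10:12810594-12851501), also called Zac1, is a zinc finger transcription factor that in mouse regulates other imprinted genes. It had 0.752, 0.454, 0.632 and 0.787 FPKM in siFto, against 1.1, 0.745, 0.918 and 0.723 FPKM in siCtr, on 48 to 116 fragments a library. The groups overlapped, with siFto2 lowest and siCtr1 highest. In the fit without the filter its log2 fold change was -0.25 with a 95% interval of -0.53 to 0.04 (limma, adjusted p = 0.275).

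Grb10 (mm9 chr11:11830502-11937423), an adaptor that binds and restrains the insulin and IGF1 receptors, had 1.06, 0.882, 0.906 and 0.872 FPKM in siFto, against 0.896, 0.856, 0.931 and 0.611 FPKM in siCtr. The groups overlapped. Its log2 fold change in the fit without the filter was 0.12 with a 95% interval of -0.10 to 0.33 (limma, adjusted p = 0.514). Near Plagl1, Ltv1, a ribosome assembly factor gene 46.9 kb away, averaged 16.8 ± 0.481 FPKM in siFto and 15.1 ± 0.905 FPKM in siCtr (limma, adjusted p = 0.0443). That call was lost in 10 of 16 alternatives, among them leaving out siFto1, siFto2, siFto3, siFto4, siCtr2, siCtr3 or siCtr4 (adjusted p = 0.0553, 0.0818, 0.109, 0.0943, 0.0732, 0.068 and 0.109). Across all members, 17 neighbours within 250 kb were tested, of which 2 were higher, 4 were lower and 11 did not pass (35.3% called, against 19.3% of all tested genes), and their median log2 fold change was -0.04. Igf2 and Copg2, both lower, and Mkrn3 and Peg12 are counted again in the list of other imprinted genes below. Mir433, 1 of the 17, reached the test through siFto2 alone. The difference between the 35.3% and the 19.3% was not tested.

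**Figure D3:**
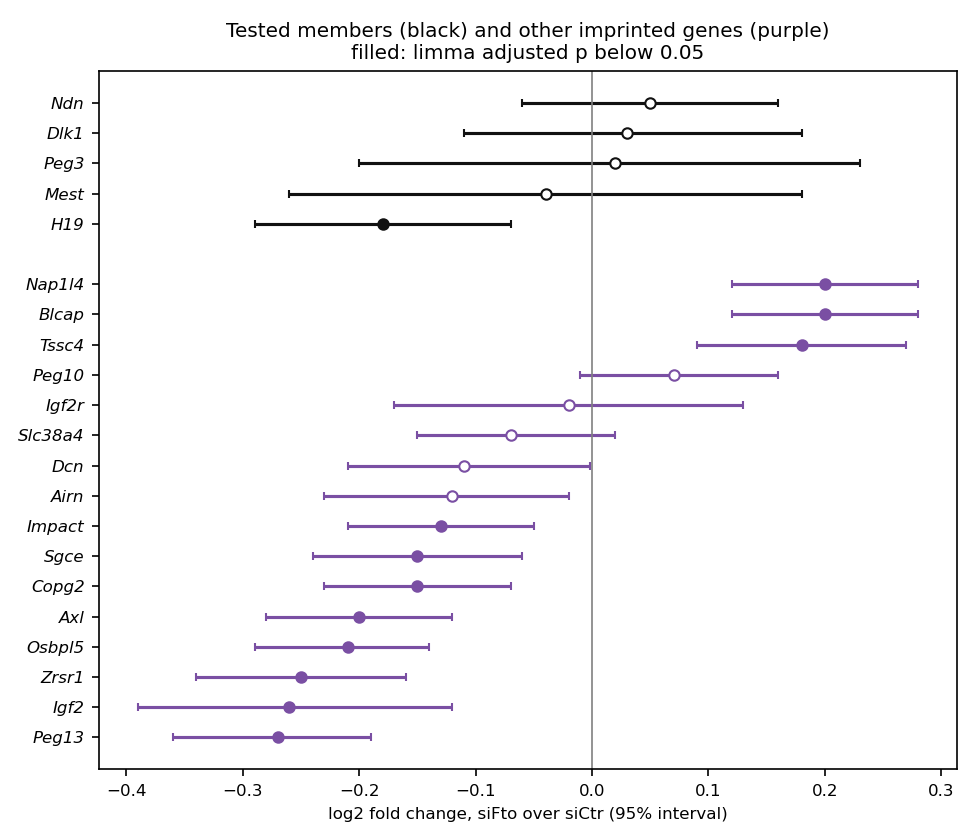
Log2 fold change, siFto over siCtr (points; bars, 95% interval), of the members and of other imprinted genes, on the log2(FPKM + 0.5) scale (black, the 5 tested members; purple, named other imprinted genes; filled, limma adjusted p below 0.05). Among these 5 members only the interval of H19, -0.29 to -0.07, excludes 0.

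Beyond the members, a list of 66 other imprinted genes was examined, of which 65 had an entry and 33 were tested. Of the 33, 3 were higher, 8 were lower and 22 did not pass, so 33.3% were called against 19.3% of all tested genes. Their median log2 fold change was 0.01. The list was drawn up with earlier results of these data known, and the difference between these shares was not tested. Among 7 tested genes with roles in growth and placenta, Igf2 was lower and none was higher. Dcn, the proteoglycan decorin, averaged 740 ± 27.8 FPKM in siFto and 797 ± 38.4 FPKM in siCtr and did not pass (limma, adjusted p = 0.146). Neither did Peg10, a retrotransposon-derived placental gene (limma, adjusted p = 0.185), nor Slc38a4, an amino acid transporter gene (limma, adjusted p = 0.257). Igf2r, the receptor that clears IGF2, averaged 116 ± 4.54 FPKM in siFto and 119 ± 12 FPKM in siCtr (limma, adjusted p = 0.868), and its antisense RNA Airn 36.5 ± 1.75 FPKM in siFto and 39.9 ± 2.23 FPKM in siCtr (limma, adjusted p = 0.106). The loci of Igf2r and Airn overlap, so without strand their shared reads cannot be told apart. Cdkn1c, the cell cycle inhibitor p57, did not exceed 0.141 FPKM in siFto or 0.0291 FPKM in siCtr.

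The strongest calls among the remaining imprinted genes were small falls. Peg13, a noncoding RNA inside Trappc9, had 14.8, 14.8, 15.1 and 14.1 FPKM in siFto, against 17.3, 18.7, 17.9 and 17.5 FPKM in siCtr, and fell by 0.27 on the log2 scale (limma, adjusted p = 0.00114). Zrsr1, a splicing factor gene inside Commd1, had 8.45, 8.48, 8.79 and 8.62 FPKM in siFto, against 10.6, 10.5, 10.4 and 9.83 FPKM in siCtr, and fell by 0.25 (limma, adjusted p = 0.00237). Since both lie inside another gene, fragments of the host could enter their values. Osbpl5, an oxysterol-binding protein gene, fell by 0.21 and Axl, the GAS6 receptor gene, by 0.20 (limma, adjusted p = 0.00224 and 0.00379). Of genes named after their values were seen, Nap1l4, a histone chaperone gene, had 58, 55.5, 59.2 and 58.6 FPKM in siFto, against 49.6, 51.3, 48.1 and 51.7 FPKM in siCtr, and rose by 0.20 (limma, adjusted p = 0.00399). Blcap and Tssc4 also rose, by 0.20 and 0.18 (limma, adjusted p = 0.0038 and 0.012). Tssc4, Nap1l4 and Osbpl5 belong to the same imprinted cluster on distal chromosome 7, and the first pair was higher while Osbpl5 was lower. Sgce and Impact were lower by small margins, -0.15 and -0.13 (limma, adjusted p = 0.0324 and 0.0341). Sgce lost its call without siFto1, siFto2 or siFto4 (adjusted p = 0.0848, 0.0565 and 0.073), with no filter (0.0547) or with no variance trend (0.0522), and Impact without any of the siFto libraries, siCtr1 or siCtr2 (adjusted p = 0.0511 to 0.0952), under median-ratio scaling (0.0587), under quantile normalization (0.0531) or with no variance trend (0.0534).

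Genes that maintain imprints after fertilization were mostly expressed: 14 of 16 were tested, with 1 higher, 2 lower and 11 not passing. That is 21.4% called, close to the 19.3% of all tested genes, and their median log2 fold change was 0.03. Zfp57, a zinc finger protein that binds methylated imprint control regions and recruits the silencing machinery, had 32, 30.8, 34.6 and 30.2 FPKM in siFto, against 39, 41, 39.1 and 35.8 FPKM in siCtr. All siFto libraries lay below all siCtr libraries, and Zfp57 fell by 0.28 on the log2 scale (limma, adjusted p = 0.00594). Setdb1, the histone H3 lysine 9 methyltransferase of that machinery, had 23.8, 24.5, 24.4 and 22.4 FPKM in siFto, against 21.7, 20.7, 20 and 21.1 FPKM in siCtr, and rose by 0.18 (limma, adjusted p = 0.0125). Daxx, a histone H3.3 chaperone, averaged 13.5 ± 0.244 FPKM in siFto and 14.9 ± 0.325 FPKM in siCtr (limma, adjusted p = 0.0228). The Daxx call was lost without siFto2, siFto3 or siCtr4 (adjusted p = 0.0524, 0.064 and 0.0695) and under quantile normalization (0.0586). Rif1, a regulator of replication timing, missed the threshold (limma, adjusted p = 0.0638) and passed it without siCtr3 (adjusted p = 0.00398).

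**Figure D4:**
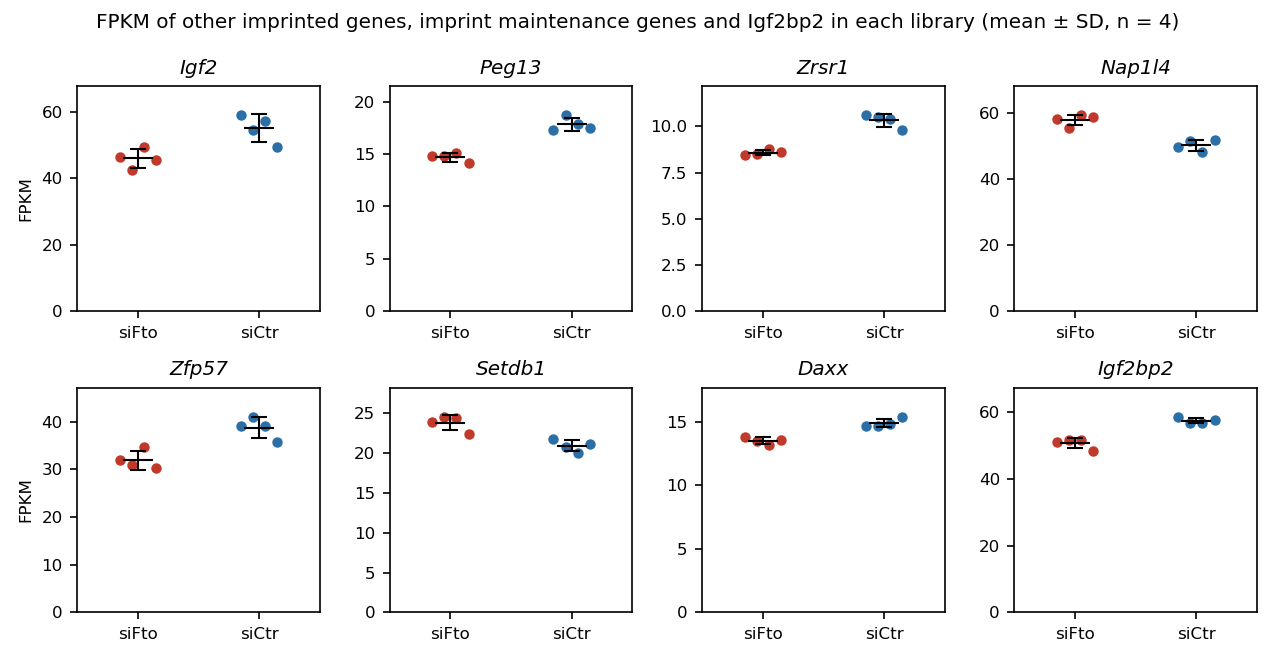
FPKM of Igf2, Peg13, Zrsr1, Nap1l4, Zfp57, Setdb1, Daxx and Igf2bp2 in each library (points; red, siFto; blue, siCtr; black bars, mean ± SD, n = 4 each; linear axes from 0). Nap1l4 and Setdb1 are higher in siFto and the other 6 are lower, each with a gap that is small beside the level itself.

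ZFP57 is known to bind the hexamer TGCCGC when its CpG is methylated, and the promoters of members were searched for it on both strands over 300 bases, 250 before to 50 after the RefSeq start. The sequences used held no promoter of H19, so the search covered 13 promoter entries of the other 9 members. TGCCGC was present in 5 of these 13 entries, against 11.6% of all 32851 promoters of that length. Of the 5, 2 are Mest starts 3 bases apart and the others belong to Plagl1, Grb10 and Meg3. The hexamer is rich in G and C, and the Mest, Plagl1 and Grb10 promoters shown held 62.7, 70.7 and 80% G and C, against a median of 52.7% over all promoters. These 3 promoters were picked for display from the entries that hold the hexamer, which is in capitals, here in its reverse complement GCGGCA. The Meg3 entry with the hexamer, not shown, held 53.7% G and C. The promoter of Peg3 (61.3% G and C) and the other promoter entry of Grb10 (52.3%) held no hexamer. Whether the stretches shown carry imprint methylation was not tested.
Mest, GRCm38.p6 chr6:30737800-30738099, plus strand: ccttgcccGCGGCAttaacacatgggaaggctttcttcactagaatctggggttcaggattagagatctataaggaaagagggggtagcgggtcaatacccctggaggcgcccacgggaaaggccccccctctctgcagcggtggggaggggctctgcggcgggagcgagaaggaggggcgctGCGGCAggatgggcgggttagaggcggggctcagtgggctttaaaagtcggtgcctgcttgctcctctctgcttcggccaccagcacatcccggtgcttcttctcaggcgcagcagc
Plagl1, GRCm38.p6 chr10:13090582-13090881, plus strand: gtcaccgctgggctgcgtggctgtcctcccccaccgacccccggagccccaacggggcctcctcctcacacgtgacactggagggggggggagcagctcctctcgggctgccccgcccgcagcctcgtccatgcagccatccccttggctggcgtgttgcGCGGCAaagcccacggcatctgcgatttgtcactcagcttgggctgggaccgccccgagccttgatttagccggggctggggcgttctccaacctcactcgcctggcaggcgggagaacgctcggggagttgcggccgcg
Grb10, GRCm38.p6 chr11:12037371-12037670, minus strand: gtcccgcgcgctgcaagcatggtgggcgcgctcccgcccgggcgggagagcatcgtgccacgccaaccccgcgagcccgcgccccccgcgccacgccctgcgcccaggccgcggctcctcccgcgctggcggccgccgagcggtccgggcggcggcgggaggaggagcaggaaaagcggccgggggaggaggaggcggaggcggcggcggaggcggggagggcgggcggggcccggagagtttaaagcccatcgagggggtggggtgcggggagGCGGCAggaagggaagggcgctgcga
The Mest promoter held the hexamer at 2 places, as 1.53% of all promoters did at 2 or more, and the other 2 promoters held it once. Mest did not pass the test, at a log2 fold change of -0.04. Plagl1 and Grb10 lay below the level needed for it and, in the fit without the filter, were at -0.25 and 0.12 and were not called. Any part of the fall of Zfp57 in these values was not tested. Methylation was not measured in these libraries.

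Of 22 known partners of the members' products, 21 were tested: 1 was lower, none was higher and 20 did not pass. That is 4.76% called, against 19.3% of all tested genes, a difference that was not tested, and their median log2 fold change was -0.01. Igf2bp2, an RNA-binding protein that binds Igf2 transcripts, had 50.9, 51.7, 51.6 and 48.3 FPKM in siFto, against 58.5, 56.7, 56.7 and 57.6 FPKM in siCtr, and fell by 0.18 on the log2 scale (limma, adjusted p = 0.00475). Every siFto library lay below every siCtr library. Gigyf1, which binds GRB10, averaged 11.6 ± 0.837 FPKM in siFto and 13 ± 0.243 FPKM in siCtr (limma, adjusted p = 0.0547) and passed the threshold without siFto1 (adjusted p = 0.0375) and among genes of at least 5 FPKM on average (adjusted p = 0.0489). Mdm2, the p53 ubiquitin ligase, averaged 1732 ± 51.3 FPKM in siFto and 1619 ± 20.9 FPKM in siCtr (limma, adjusted p = 0.132), and the call depended on the scaling: 0.12 under median-ratio scaling (adjusted p = 0.0431, a call) and -0.04 under quantile normalization (no call). The receptors that GRB10 restrains did not pass the test: Igf1r averaged 11.8 ± 0.759 FPKM in siFto and 10.8 ± 0.615 FPKM in siCtr (limma, adjusted p = 0.159), and Insr 14.6 ± 0.669 FPKM in siFto and 14.7 ± 0.824 FPKM in siCtr (limma, adjusted p = 0.925).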

How the data were processed

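Total RNA of 8 3T3-L1 samples, 4 siFto and 4 siCtr per the labels, was sequenced. The submitters' processing notes name TopHat2 2.0.11, Cufflinks 2.2.1 and the build mm9. Per the file headers, the deposited values are FPKM with Cufflinks intervals. The sources used here give neither the gene annotation nor a strand setting. The authors' compiled table held the same FPKM for all 10 members. FPKM are not counts, so no count test was run. The fragments behind a value were computed from its interval and cover counting error only.

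Genes with a mean of at least 1 FPKM (11398) were compared as log2(FPKM + 0.5), a scale that understates changes of low genes, with limma 3.58.1 (R 4.3.3) with a variance trend, two-sided, and Benjamini-Hochberg adjustment over all tested genes. All adjusted p-values come from limma. The summed FPKM of the domain's noncoding RNAs was compared with an exact permutation test. Scripts used Python 3.11.15.

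Named were all members, Fto, up to 4 genes per list with the lowest p, 7 imprinted or receptor genes whatever their values, tested genes within 250 kb of a member, and the 3 genes closest in pattern to a called member. Members, lists and tests were chosen with earlier results of these data known. Airn, Copg2, Sgce, Impact, Nap1l4, Blcap and Tssc4 were named after their values were seen, except Copg2 as a neighbour. Starts of deposited loci are counted from 1. Alternatives were other pseudocounts, filters, scalings, no trend, a replicate block and leaving out each library. Sequences are from RefSeq (GRCm38.p6) and were used for sequence only.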

Additional observations from a re-analysis of the deposited data

Results flagged for a closer look

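Within a group of 4 libraries, 7 values stood apart from the other 3 by the gap to the nearest library. They came from 108 groups, where chance gives about 1 in 20, so their number is close to that rate. Groups with the same value in all 4 libraries, such as those of Meg3, are counted but could not be flagged. Of the members, Dlk1 had 1036 FPKM in siCtr3, against 871 to 885 FPKM in the other siCtr libraries. In the same library Sgce had 102 FPKM, against 91.4 to 92.3 FPKM in the other siCtr libraries, and Peg3as 17.4 FPKM, against 10.4 to 11.5 FPKM. Impact had 52.6 FPKM in siCtr2, against 48.2 to 48.9 FPKM in the other siCtr libraries. Mir433 had 60.9 FPKM in siFto2 and was listed at 0 in all other libraries. Near the detection limit, Cdkn1c was listed at 0 in siCtr1, against 0.0244 to 0.0291 FPKM in the other siCtr libraries, and Dio3 had 0.0249 FPKM in siCtr2 and was listed at 0 elsewhere.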

How the results depend on the processing

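The number of members called lower, 1 (H19), was 0 under quantile normalization, 0 in the fit with the replicate number as a block (H19 adjusted p = 0.0715) and 0 to 1 when each library was left out. Same-numbered samples did not deviate together (correlations 0.107, -0.034, -0.226 and -0.122), so the numbers were not taken as pairs. Under the block, 628 genes were higher and 1133 lower in all, against 794 and 1401, Daxx and Impact lost their calls (adjusted p = 0.0624 and 0.083), and so did Ltv1 (0.0899). Median-ratio scaling gave 1086 higher and 1218 lower, 47.1% of calls higher against 36.2%, and quantile normalization 1086 and 1207, or 47.4%. Leaving out a library gave 3 to 4 higher and 6 to 8 lower among the other imprinted genes, 550 to 941 higher and 992 to 1433 lower over all genes, and -2.22 to -2.1 for Fto. Signs turned for Mest (0.04 without siFto2, 0.02 without siCtr1, 0.0038 without siCtr3), Peg3 (-0.02 without siFto2, -0.0026 without siFto3, -0.09 without siCtr3, up to 0.07 without siCtr2), Utrn (-0.01 without siCtr3, up to 0.16), Sf3b5 (0.05 without siFto2 or siCtr3, down to -0.11), Igf2r (0.02 without siCtr1, 0.01 without siCtr4), Mdm2 (-0.04 under quantile normalization) and Insr (0.01 under median-ratio scaling, 0.02 under quantile normalization, 0.02 without siFto4, 0.0030 without siCtr1, 0.01 without siCtr2, down to -0.05 without siCtr3). None of these values passed the test. The causes were not tested. Depth limits Mirg, Rian, Plagl1 and Grb10, with 1 to 116 fragments a library.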
